A study of Mus musculus with 6 samples.

Results

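The inflammatory cytokines and acute-phase response genes described here are Il1a, Il1b, Tnf, Il6, Il1rn, Acod1, Saa1, Saa2, Saa3 and Lcn2. They were taken by symbol from the array's annotation, which gave 9 of the 10 genes a probe set of their own, among 22180 genes so measured. Saa1 had none, because its only probe set was annotated to Saa1 and Saa2 together. All 9 measured genes, each with a single probe set, passed the filter on mean signal over the 6 arrays (a log2 level of 4.70) and entered the tests over 15526 genes. Il1b and Acod1 passed it only through the quiescent arrays, since their means over the 4 cultured arrays were 4.48 and 4.69. Saa2 passed it only through the arrays of old mice. Its highest value in young mice, 4.71, lay just above that level and the others under it. Folds are not given where the lower signal is at or under that level.

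The samples were primary hepatic stellate cells of mice. These pericytes of the liver sinusoid store vitamin A and become contractile, matrix-producing myofibroblasts in culture. PRI-724 cells were culture-activated cells given 10 µM C-82, the active form of PRI-724, dissolved in DMSO. C-82 blocks the contact between CBP, a transcriptional coactivator, and beta-catenin. Vehicle cells were culture-activated without C-82, and both kinds had been in culture for more than 20 days. Quiescent cells came from normal liver and had been plated for 12 h, without treatment. Each state was sampled from old mice (6 to 9 months) and young mice (8 to 11 weeks). That made 6 arrays, 1 for each age and state, each of cells pooled from 5 mice. All cells grew on uncoated plastic in a medium with 10% fetal bovine serum. Neither the strain and sex of the mice nor the time of exposure to C-82 is given in the sources used here.

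IL-1 alpha, IL-1 beta and TNF are early cytokines of inflammation, made mainly by macrophages and other myeloid cells after contact with microbial products or damaged tissue. Their receptors activate the transcription factor NF-kB, which in turn raises further cytokines, among them IL-6. IL-1 and IL-6 act on hepatocytes and other cells to raise the acute-phase proteins, such as the serum amyloid A proteins, which travel with lipoproteins in the blood. In the liver, Kupffer cells are the classical source of the cytokines and hepatocytes that of Saa1 and Saa2, while mouse Saa3 is also made outside hepatocytes.

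With a single array per age and state, replicate error within a group could not be measured. The tests (limma, a model with age and state over all 6 arrays, Benjamini-Hochberg adjustment over 15526 genes, threshold 0.05) judged each difference between states, averaged over an old and a young pair of arrays, by how far the pairs of all states departed from a common age difference. That spread was drawn toward a trend with intensity over all tested genes. The trend had more weight (7.76 prior degrees of freedom) than the gene's own departures (2 residual degrees of freedom). Nothing says that the arrays of an age came from separate pools, so p-values measure only the spread between these arrays. The young PRI-724 array had a narrower signal range than the others, with an interquartile range over all measured genes of 2.04 log2 units, against 2.39 to 2.94 on the other 5. Of the 14 stellate cell markers, Dcn lay between 11.80 and 12.53 log2 units on the 6 arrays, whereas Lrat lay between 5.57 and 8.15, Acta2 between 5.94 and 10.49 and Lum between 4.75 and 7.06. In that list 8 genes rose and 1 fell with culture, and 2 fell with PRI-724 against vehicle, with a median of -0.65. The mean log2 signal of 18 macrophage markers was 5.97 and 5.87 in old and young PRI-724 cells, 7.96 and 8.17 in old and young vehicle cells, and 8.48 and 7.88 in old and young quiescent cells. On the PRI-724 arrays Cd68 was at 9.80 in old and 9.00 in young cells, while Vsig4 was at 4.35 and 3.60.

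The promoters of 5 of the genes are shown because they belong to close relatives or neighbours: Saa1, Saa2 and Saa3 in a cluster on chromosome 7, and Il1a and Il1b on chromosome 2. Saa2 and Saa3 had different patterns over the arrays, as had Il1a and Il1b, and Saa1 was not measured by itself. Each is the 250 bases before a RefSeq transcript start (GRCm38.p6), read 5′ to 3′ on the gene's strand. Capitals mark matches to TTNNGNAA on either strand, a form bound by C/EBP factors, which act in acute-phase genes.
Saa1 (chr7:46742981-46743230, minus strand): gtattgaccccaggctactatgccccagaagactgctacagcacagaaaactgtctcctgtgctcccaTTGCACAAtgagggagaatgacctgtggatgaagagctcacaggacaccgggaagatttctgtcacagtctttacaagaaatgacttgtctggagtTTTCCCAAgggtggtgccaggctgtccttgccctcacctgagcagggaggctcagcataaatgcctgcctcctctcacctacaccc
Saa2 (chr7:46751583-46751832, plus strand): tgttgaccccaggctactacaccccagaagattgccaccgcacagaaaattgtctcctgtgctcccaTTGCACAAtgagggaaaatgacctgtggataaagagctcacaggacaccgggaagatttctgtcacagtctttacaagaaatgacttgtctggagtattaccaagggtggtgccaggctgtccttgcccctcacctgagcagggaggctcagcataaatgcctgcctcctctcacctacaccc
Saa3 (chr7:46715677-46715926, minus strand): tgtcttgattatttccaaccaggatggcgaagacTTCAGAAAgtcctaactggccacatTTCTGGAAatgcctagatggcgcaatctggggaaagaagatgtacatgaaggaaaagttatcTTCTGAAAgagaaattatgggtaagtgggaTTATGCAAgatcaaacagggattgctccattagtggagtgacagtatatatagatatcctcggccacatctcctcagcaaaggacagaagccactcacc
Il1a (chr2:129309973-129310222, minus strand): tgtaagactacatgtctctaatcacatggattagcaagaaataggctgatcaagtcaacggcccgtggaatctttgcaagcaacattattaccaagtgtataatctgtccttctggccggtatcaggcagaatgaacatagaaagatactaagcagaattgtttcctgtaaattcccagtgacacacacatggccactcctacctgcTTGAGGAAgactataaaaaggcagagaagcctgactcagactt
Il1b (chr2:129371140-129371389, minus strand): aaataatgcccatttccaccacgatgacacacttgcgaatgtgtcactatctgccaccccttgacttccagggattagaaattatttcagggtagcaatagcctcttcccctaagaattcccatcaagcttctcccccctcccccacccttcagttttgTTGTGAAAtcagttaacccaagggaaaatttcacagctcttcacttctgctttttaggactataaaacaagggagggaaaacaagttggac
The Saa1 and Saa2 windows were identical at 238 of 251 aligned positions (94.8%), whereas Saa3 shared 48.5% with Saa1 and 47.8% with Saa2. The capitalised motif occurred 4 times in the Saa3 window, in 2 places in Saa1 and once in each of the other windows. It is common, with a match in 36.8% of 32851 mouse promoter windows of this length. A form bound by NF-kB (GGG, any 3 bases, then TTCC) stood in 4.65% of those windows and in none of the 5 shown. Among the other genes it had a match in the Il6 window and in 1 of 3 windows of Il1rn. TGANTCA, the AP-1 form, had a match in the Il1a and Il6 windows, in 1 of 3 windows of Il1rn and in 6.75% of all windows, and TTCNNNGAA, the STAT form, in no window of these 10 genes and in 7.02% of all. A match is a description of letters and not of binding.

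Culture activation was asked first: what distinguished activated vehicle cells from freshly plated quiescent cells. The early cytokine genes and Acod1 were lower after culture at both ages, whereas Saa3 and Lcn2 had far higher values in young cultures than in young quiescent cells. In old cells the difference was 0.52 log2 units for Saa3 and -0.83 for Lcn2. Of the 9 genes, 5 fell (Il1b, Tnf, Il1rn, Acod1 and Saa2) and 0 rose. Among all tested genes 1.26% were called lower and 4.61% higher, with a median difference of 0.04 log2 units, beside a median of -1.31 over the 9 genes. At least 2-fold lower at both ages were 6 of the 9 genes, against 1.15% of all genes tested. Among the 6, Il1b, Acod1 and Saa2 each had a vehicle value under the filter level.

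Il1b, which encodes the secreted IL-1 beta, had a log2 signal of 3.68 in old and 5.14 in young vehicle cells, against 6.43 in old and 7.69 in young quiescent cells. Both quiescent values lay above both vehicle values. The gene fell by 2.65 ± 0.32 log2 units (SE, n = 2 pairs, limma, adjusted p = 0.00408). The value in old vehicle cells was under the filter level. Acod1, the enzyme that makes itaconate in activated macrophages, stood at 4.35 and 5.24 in old and young vehicle cells, against 7.04 and 9.51 in old and young quiescent cells. It fell by 3.48 ± 0.38 (n = 2 pairs, limma, adjusted p = 0.00408), with differences of -2.69 in old and -4.27 in young cells. Without the filter adjusted p was 0.00416 for Il1b and 0.00313 for Acod1.

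Tnf, the gene of the cytokine TNF, had signals of 6.40 and 7.05 in old and young vehicle cells, against 7.68 and 8.99 in old and young quiescent cells. The groups did not overlap, and it fell by 1.61 ± 0.32 (n = 2 pairs, limma, adjusted p = 0.0212). The Tnf call was lost after quantile normalization (adjusted p = 0.0519), without the young quiescent array (0.14) and without the young vehicle array (0.0752). Il1rn encodes the secreted antagonist that blocks the IL-1 receptor. Its signals were 7.68 and 8.18 in old and young vehicle cells, against 8.81 and 9.67 in old and young quiescent cells, and it fell by 1.31 ± 0.31 (n = 2 pairs, limma, adjusted p = 0.0374). The Il1rn call was lost without the young quiescent (0.347), young vehicle (0.182) or old vehicle array (0.105). Il1a, the gene of the cell-associated IL-1 alpha, stood at 7.99 and 8.31 in vehicle cells of old and young mice, against 9.07 and 9.34 in their quiescent cells. Its difference of -1.06 ± 0.29 was nearly the same at both ages (-1.08 in old, -1.04 in young) and did not pass the threshold (limma, adjusted p = 0.0621). After cyclic loess it passed, at -1.28 (adjusted p = 0.0328).

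Il6 encodes a main inducer of the hepatic acute phase, and its differences had opposite signs at the 2 ages. Its signal was 4.98 in old vehicle cells against 6.02 in old quiescent cells, and 6.78 in young vehicle cells against 5.70 in young quiescent cells. The mean difference was 0.02 ± 0.46 (limma, adjusted p = 0.984). Opposite signs between the ages were seen in 25.9% of all tested genes in this comparison.

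**Figure D1:**
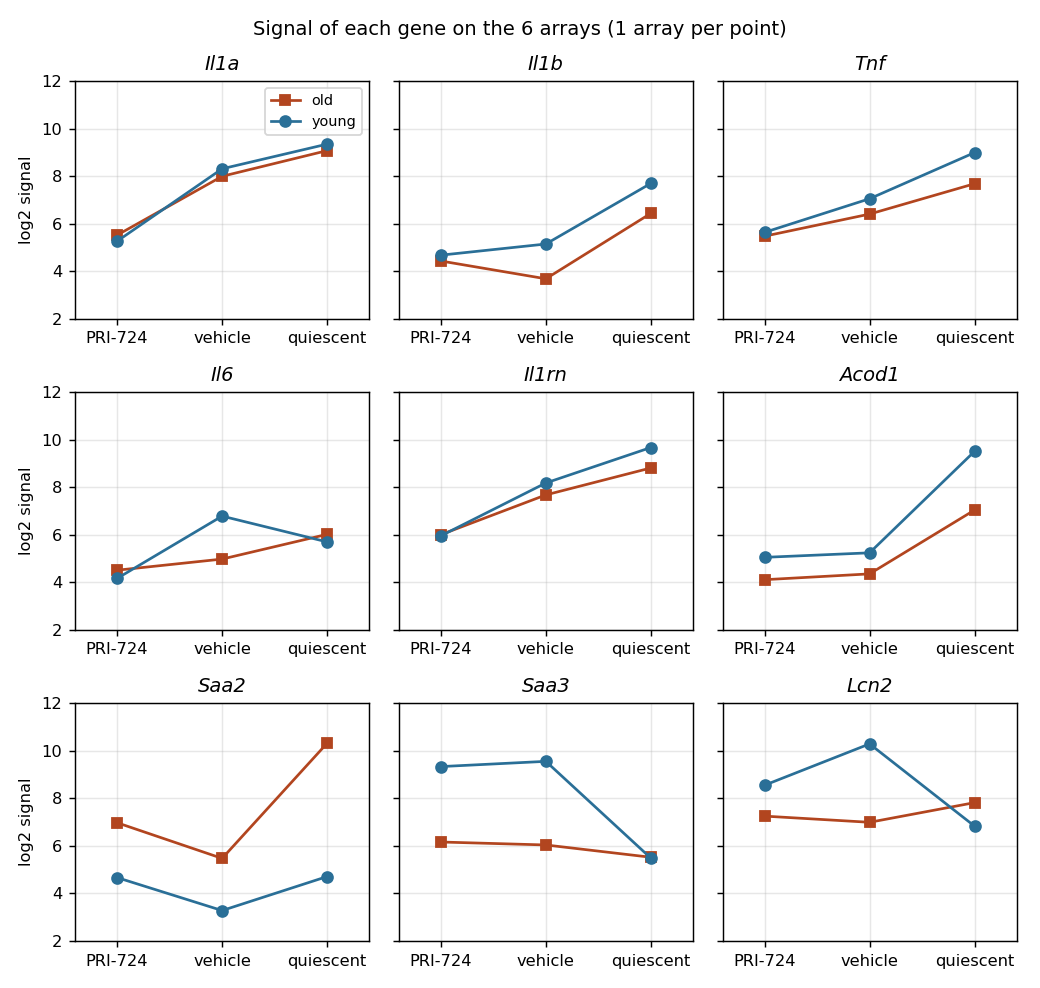
Log2 signal (vertical axis) of the 9 genes in PRI-724, vehicle and quiescent cells (horizontal axis), with old cells as squares and young cells as circles, 1 array per point. Il1a, Tnf and Il1rn are lowest in PRI-724 cells at both ages, Il1b and Acod1 are highest in quiescent cells, and Saa3 separates young from old cultures, at 9.34 and 9.56 against 6.16 and 6.04.

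The serum amyloid genes did not move together. Saa2 had signals of 5.47 and 3.28 in old and young vehicle cells, against 10.32 and 4.71 in old and young quiescent cells. The value in old quiescent cells stood above the other 5 arrays, which lay between 3.28 and 6.97. Saa2 fell by 3.14 ± 0.67 (n = 2 pairs, limma, adjusted p = 0.0266), with a difference of -4.85 in old and -1.43 in young cells. The young vehicle value was under the filter level of 4.70 and the young quiescent value just above it. The young difference is thus close to the floor, and Saa2 passed the filter only through the old arrays. Without the filter adjusted p was 0.027 (limma). This call was lost with only the arrays of both states in the fit (adjusted p = 0.0984), after cyclic loess (0.0814) and after quantile normalization (0.107). It was also lost when the old PRI-724 array was left out (0.0987) and when the young one was (0.0984).

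Saa3 had signals of 6.04 and 9.56 in old and young vehicle cells, against 5.52 and 5.48 in old and young quiescent cells. The quiescent arrays were thus nearly equal, and young vehicle cells stood 16.8-fold above young quiescent cells, against 1.43-fold in the old pair. The mean difference was 2.30 ± 0.68 (limma, adjusted p = 0.0803). Lcn2 encodes lipocalin 2, a siderophore-binding protein of innate immunity that also serves as an acute-phase marker. It stood at 6.99 and 10.29 in old and young vehicle cells, against 7.82 and 6.83 in old and young quiescent cells. The young pair was 11.0-fold apart and the old pair differed by -0.83 log2 units, with a mean of 1.32 ± 0.74 (limma, adjusted p = 0.331).

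For 4 of the 9 genes (Il6, Saa2, Saa3 and Lcn2) the responses to culture of old and young cells were at least 4-fold apart, as they were for 0.889% of all tested genes. With 1 array for each age and state this difference in response was not tested. Without the old quiescent array the difference was 3.99 for Saa3 and 2.96 for Lcn2, and without the old vehicle array 3.27 and 2.89. Each of these fits keeps only the young array of 1 of the compared states, so they largely restate the young pair. With all arrays 911 of all tested genes were called in this comparison. The count of fallen genes was 3 without the young quiescent array and 3 without the young vehicle array, in place of 5, with 815 and 318 calls over all genes.

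Hepatocyte RNA varied with Saa2. The summed linear signal of 13 measured hepatocyte markers was 2168 and 489 in old and young vehicle cells, against 11260 and 1375 in old and young quiescent cells, and 3 of the 11 tested markers fell and 0 rose with culture. Alb, the albumin gene, stood at 10.07 and 7.02 in old and young vehicle cells, against 11.95 and 9.32 in quiescent cells. In bulk RNA, fewer cells of a type and less RNA per cell cannot be told apart. The part of hepatocyte RNA in the Saa2 values was not tested. For the macrophage list the sum was 9348 and 10140 in old and young vehicle cells, against 13840 and 7053 in quiescent cells. Of its 17 tested genes 1 rose and 0 fell with culture, with a median of -0.07.

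PRI-724 was compared next with vehicle in activated cells. Il1a and its antagonist Il1rn fell, Tnf and Il6 were lower at both ages without passing the threshold, and Saa3 differed little. Il1b and Acod1 were already under the filter level in old vehicle cells, at 3.68 and 4.35, so a further fall there might not be measurable. In total 2 of the 9 genes fell and 0 rose. Among all tested genes 1.93% were called lower and 0.271% higher, with a median of -0.05, beside a median of -0.74 over the 9 genes. Il1a and Il1rn were also the 2 genes at least 2-fold lower at both ages, as were 2.36% of all genes. Saa2 was the 1 gene with a difference of at least 1 log2 unit upward at both ages, as for 0.367% of all genes, though both young Saa2 values were under the filter level. The hepatocyte sums were 2648 and 1199 in old and young PRI-724 cells, against 2168 and 489 in old and young vehicle cells, with a list median of 0.68 and 0 of 11 markers called. Their part in the Saa2 values was not tested.

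Il1a had signals of 5.52 and 5.26 in old and young PRI-724 cells, against 7.99 and 8.31 in old and young vehicle cells. It fell by 2.76 ± 0.29 (SE, n = 2 pairs, limma, adjusted p = 0.0021), a 6.78-fold difference, with differences of -2.48 in old and -3.05 in young cells. Il1rn stood at 6.00 and 5.95 in old and young PRI-724 cells, against 7.68 and 8.18 in old and young vehicle cells. It fell by 1.95 ± 0.31 or 3.86-fold (n = 2 pairs, limma, adjusted p = 0.0123). The agonist and the antagonist of the same receptor were therefore both lower, at both ages.

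Tnf had signals of 5.47 and 5.63 in old and young PRI-724 cells, against 6.40 and 7.05 in old and young vehicle cells. The difference of -1.17 ± 0.32 did not pass the threshold (limma, adjusted p = 0.105), although the groups did not overlap. Il6 stood at 4.51 and 4.16 in old and young PRI-724 cells, against 4.98 and 6.78 in vehicle cells. The young difference was -2.62 and the old -0.47, with a mean of -1.55 ± 0.46 (limma, adjusted p = 0.14). Il6 was the 1 gene whose responses at the 2 ages were at least 4-fold apart, as were those of 0.638% of all genes. Both its PRI-724 values were under the filter level, and its old vehicle value of 4.98 was little above it. A larger fall of Il6 in old cells might therefore not be measurable.

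Il1b, the neighbour of Il1a on chromosome 2, had signals of 4.43 and 4.67 in old and young PRI-724 cells, against 3.68 and 5.14 in old and young vehicle cells. The groups overlapped, and the difference was 0.14 ± 0.32 (limma, adjusted p = 0.866). Acod1 stood at 4.11 and 5.05 in old and young PRI-724 cells, against 4.35 and 5.24 in vehicle cells, a difference of -0.22 ± 0.38 (limma, adjusted p = 0.812). In vehicle cells Il1b stood at percentile 13.5 in old and 43.3 in young cells among all measured genes, and Acod1 at 24.6 in old and 45.3 in young cells.

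Saa2 stood at 6.97 and 4.66 in old and young PRI-724 cells, against 5.47 and 3.28 in old and young vehicle cells. The differences were positive at both ages, with both young values under the filter level, and gave a mean of 1.44 ± 0.67 that did not pass the threshold (limma, adjusted p = 0.338). Saa3 had 6.16 and 9.34 in old and young PRI-724 cells, against 6.04 and 9.56 in vehicle cells. The young cultures kept their high Saa3 signal under PRI-724, and the difference was -0.05 ± 0.68 (limma, adjusted p = 0.984). Lcn2 stood at 7.25 and 8.55 in old and young PRI-724 cells, against 6.99 and 10.29 in vehicle cells. The differences were 0.26 in old and -1.74 in young cells, with a mean of -0.74 ± 0.74 (limma, adjusted p = 0.657). Opposite signs at the 2 ages were seen for Il1b, Saa3 and Lcn2, and in 39.1% of all tested genes.

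The fall of Il1a and Il1rn stood beside a fall of macrophage and endothelial markers. Of 17 tested macrophage markers 12 fell with PRI-724 and 0 rose, with a median of -2.05, and of 13 sinusoidal endothelial markers 12 fell, with a median of -2.75. The summed macrophage signal was 2271 and 1745 in old and young PRI-724 cells, against 9348 and 10140 in old and young vehicle cells. The endothelial sum was 2598 and 1034 in old and young PRI-724 cells, against 11130 and 13070 in vehicle cells. Neutrophil markers stayed low on all 6 arrays, with sums between 247 and 325. The part of these cell types in the cytokine differences was not tested.

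Without the young PRI-724 array, limma called 0 of the 9 genes and 0 of 15526 genes in this comparison, with 997 genes at an unadjusted p under 0.05, and Il1a stood at -2.49 (adjusted p = 0.226) and Il1rn at -1.58 (0.302). The Il1rn call was also lost after quantile normalization (-1.76, adjusted p = 0.0509). Leaving out the young quiescent, old quiescent or old vehicle array gave 4 of the 9 genes lower, while calls over all genes were 968, 955 and 744, against 341 with all arrays.

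**Figure D2:**
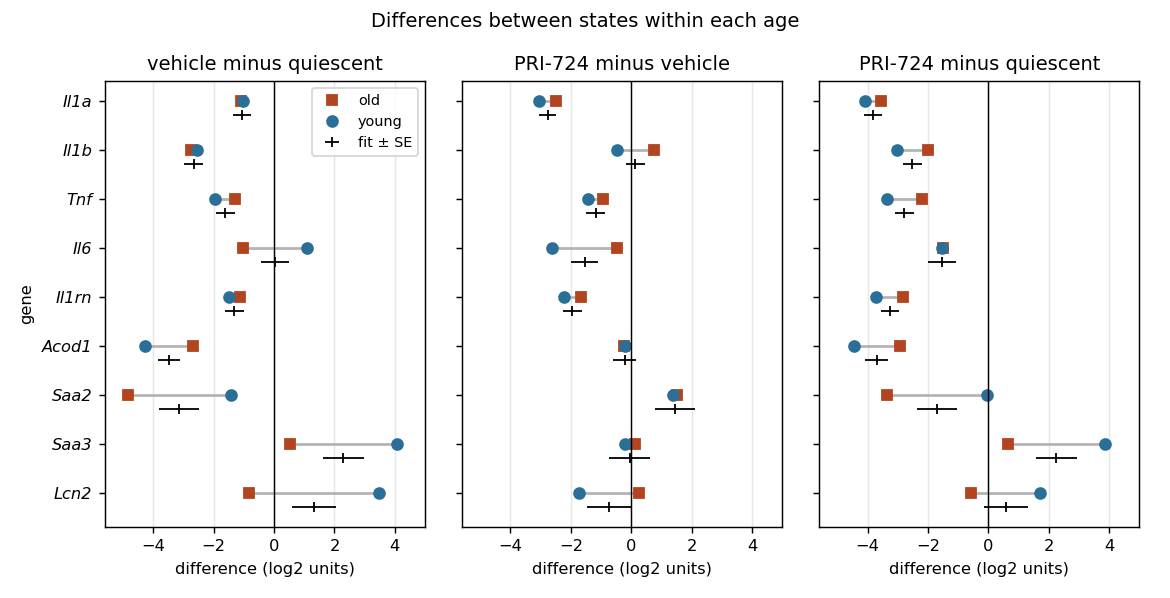
Difference in log2 units (horizontal axis) for each gene within old cells (squares) and young cells (circles) in the 3 comparisons of states, with the fitted difference and its SE as a black bar below. Both ages lie below 0 for Il1a, Tnf, Il1rn and Acod1 in every panel. Saa3 is apart by age against quiescent cells and lies near 0 for PRI-724 minus vehicle, at 0.12 in old and -0.22 in young cells.

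PRI-724 cells were then set against quiescent cells. In this comparison 5 of the 9 genes fell (Il1a, Il1b, Tnf, Il1rn and Acod1) and 0 rose, against 2.43% of all tested genes called lower and 1.28% called higher. At least 2-fold lower at both ages were 6 of the 9 genes and 2.22% of all genes. Among the 6, Il1b and Il6 had both PRI-724 values under the filter level, and Acod1 its old value. In the same comparison 13 of 17 tested macrophage markers fell (median -2.11), as did 10 of 13 endothelial markers (median -2.80), and their part in these values was not tested. It shares arrays with the comparisons above, so its values restate the same signals. Il1a fell by 3.82 ± 0.29 or 14.1-fold (SE, n = 2 pairs, limma, adjusted p = 0.000615) and Acod1 stood at -3.70 ± 0.38 (limma, adjusted p = 0.000964). The size for Il1rn was -3.26 ± 0.31, for Tnf -2.78 ± 0.32 and for Il1b -2.51 ± 0.32. Il6 was lower by nearly the same amount at both ages (-1.51 in old, -1.54 in young) and did not pass the threshold (-1.52 ± 0.46, limma, adjusted p = 0.116).

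The acute-phase genes again differed by age. Saa3 stood at 6.16 and 9.34 in old and young PRI-724 cells, against 5.52 and 5.48 in quiescent cells, which was 1.56-fold in old and 14.5-fold in young cells (2.25 ± 0.68, limma, adjusted p = 0.116). Saa2 differed by -3.35 in old and -0.04 in young cells (-1.70 ± 0.67, limma, adjusted p = 0.235), and Lcn2 by -0.57 in old and 1.72 in young cells (0.58 ± 0.74, limma, adjusted p = 0.824). The responses of these 3 genes at the 2 ages were at least 4-fold apart, as were those of 1.73% of all genes. Lcn2 alone of the 9 had opposite signs, seen in 44.3% of all genes. Without the young PRI-724 array limma called 0 of the 9 genes and 0 of all 15526 (2763 at an unadjusted p under 0.05). Without the old PRI-724 array it called 4 of the 9 lower, and 94 of all genes in either direction, against 577 with all arrays.

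The age of the mice was compared over the 3 states. Saa2 was the single one of the 9 genes past the threshold, higher in old cells, where 0.264% of all tested genes were called higher and 0.251% lower. It stood at 6.97, 5.47 and 10.32 in old PRI-724, vehicle and quiescent cells, against 4.66, 3.28 and 4.71 in young cells of the same states. All 3 old values were above all 3 young values, and the rise was 3.37 ± 0.54 log2 units (SE, n = 3 pairs, limma, adjusted p = 0.0318). The gap was widest in quiescent cells, at 5.61 log2 units, with the young value just above the filter level. The other young values were under that level, so Saa2 passed the filter only through the old arrays. Without the filter adjusted p was 0.0305 (limma). The probe set annotated to Saa1 and Saa2 together had signals of 7.03, 5.31 and 8.93 in old PRI-724, vehicle and quiescent cells, against 2.77, 2.87 and 2.94 in the young. The old values were all higher than the young ones, and the probe set cannot be assigned to either gene.

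The rise of Saa2 with age stood beside higher hepatocyte markers. Their summed signal was 2648, 2168 and 11260 in old PRI-724, vehicle and quiescent cells, against 1199, 489 and 1375 in young cells, and 4 of 11 tested markers rose and 0 fell. The part of hepatocyte RNA in this difference was not tested. The call for Saa2 was lost after cyclic loess (adjusted p = 0.193), after quantile normalization (0.218), without the old PRI-724 array (0.354) and without the young PRI-724 array (0.355).

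Saa3 and Lcn2 had the opposite order in cultured cells. Saa3 was 9.03-fold lower in old than in young PRI-724 cells and lower by a similar factor in old vehicle cells (-3.52 log2 units), while quiescent cells differed by 0.04 log2 units. Over the 3 states its difference was -2.22 ± 0.56 (limma, adjusted p = 0.16). Lcn2 was 9.85-fold lower in old vehicle cells and 2.46-fold lower in old PRI-724 cells, and 1.99-fold higher in old quiescent cells, with a mean of -1.20 ± 0.60 (limma, adjusted p = 0.542). Without any single quiescent or vehicle array, 2 of the 9 genes were called lower in old cells, while calls over all genes lay between 215 and 343, against 80 with all arrays. The genes called were Saa3 and Lcn2 without a quiescent array. Without a vehicle array they were Saa3 and Acod1, and Lcn2 stood at -0.16.

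With all arrays in the fit, none of the cytokine genes nor Acod1 passed the threshold by age. Acod1 was lower in old cells of each state, with differences of -0.94, -0.89 and -2.47 in PRI-724, vehicle and quiescent cells, with a mean of -1.43 ± 0.31 (limma, adjusted p = 0.0984). Il1b differed by -0.25, -1.46 and -1.26 in the same states (-0.99 ± 0.26, limma, adjusted p = 0.182). Tnf differed by -0.16, -0.65 and -1.31 (-0.71 ± 0.26, limma, adjusted p = 0.385), and Il6 by 0.35, -1.81 and 0.32 (-0.38 ± 0.38, adjusted p = 0.791). Il1a differed by 0.25, -0.32 and -0.27, the smallest age differences of the 9 genes taken over the 3 states (-0.11 ± 0.24, limma, adjusted p = 0.921).

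**Figure D3:**
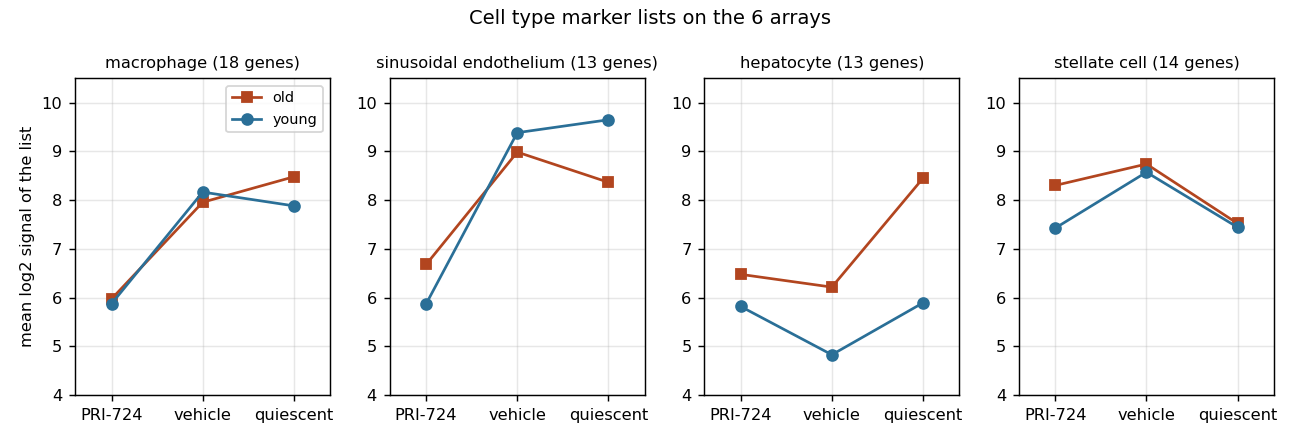
Mean log2 signal (vertical axis) of the macrophage, sinusoidal endothelial, hepatocyte and stellate cell marker lists in PRI-724, vehicle and quiescent cells (horizontal axis), old as squares and young as circles, 1 array per point. Macrophage and endothelial lists are lowest in PRI-724 cells at both ages, and the hepatocyte list is highest in old quiescent cells, at 8.45.

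The levels across the array set followed different patterns among the genes. Il1a, Tnf and Il1rn ran from PRI-724, the lowest, through vehicle to quiescent cells, the highest, at both ages. Acod1 had the same order, but shared with Il1b a pattern in which quiescent cells stood apart, and PRI-724 and vehicle cells did not differ past the threshold. The means of Il1b and Acod1 over the 4 cultured arrays, 4.48 and 4.69, were under the filter level. Profiles over the 6 arrays were compared with those of other tested genes, by Euclidean distance between mean-centred log2 values. The 9 genes themselves, predicted or unnamed genes and some gene families were left out of this ranking. The 5 genes then nearest to Il1b were Clec4e at 0.722, H2-Q5 at 0.856, Krtap4-16 at 1.25, Ccl7 at 1.26 and Tnfaip3 at 1.28. Clec4e is a C-type lectin of myeloid cells, Ccl7 a monocyte-attracting chemokine and Tnfaip3 an inhibitor of NF-kB signalling. H2-Q5 belongs to a family of near-identical class I genes, so its signal may include its relatives. The genes nearest to Saa3 in the same ranking were further away, with Gsta4, a glutathione transferase, at 1.80, Tnfsf18 at 2.31, Cyp1b1 at 2.58, Ndufa4l2 at 2.61 and Ggt5 at 2.83. Among the 9 genes themselves, the profile of Lcn2 correlated best with that of Saa3 (Pearson r = 0.869, n = 6 arrays). For Il1b the best correlated of them was Acod1 (r = 0.97).

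The receptors of these cytokines gave no call. Il1r1, the signalling IL-1 receptor, stood between 8.54 and 9.38 on the 6 arrays, and its differences were -0.24 ± 0.25 for vehicle minus quiescent and -0.13 ± 0.25 for PRI-724 minus vehicle. Its partner Il1rap stood at 0.91 ± 0.30 and -0.71 ± 0.30 in the same comparisons, without passing the threshold (limma, adjusted p = 0.108 and 0.295). Il6st, the signalling subunit gp130 of the IL-6 receptor, had differences of 0.20 ± 0.18 and 0.00 ± 0.18, and Il6ra, the IL-6 binding subunit, 0.39 ± 0.37 and 0.32 ± 0.37. The TNF receptors Tnfrsf1a and Tnfrsf1b lay at -0.13 ± 0.25 and -0.09 ± 0.26 for vehicle minus quiescent, and at -0.18 ± 0.25 and -0.13 ± 0.26 for PRI-724 minus vehicle. None of these 6 receptor genes passed the threshold in any of the 4 comparisons.

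Nfkbia and Tnfaip3, feedback inhibitors of NF-kB, were lower in vehicle than in quiescent cells. Nfkbia, the inhibitor that holds NF-kB in the cytoplasm and is itself an NF-kB target, stood at 8.78 and 9.75 in old and young vehicle cells, against 10.42 and 11.34 in quiescent cells. It fell by 1.62 ± 0.22 (SE, n = 2 pairs, limma, adjusted p = 0.00643), and Tnfaip3 fell by 2.04 ± 0.26 (limma, adjusted p = 0.0055). Socs3, which limits IL-6 signalling, stood at -0.70 ± 0.30 (limma, adjusted p = 0.195) and did not pass. Nfkbia was also lower in old than in young cells, at -1.01 ± 0.18 (limma, adjusted p = 0.0499). With PRI-724 against vehicle Nfkbia lay at 0.12 ± 0.22, Tnfaip3 at 0.16 ± 0.26 and Socs3 at -0.15 ± 0.30, and none passed. Il1r2, the decoy IL-1 receptor, was not among the tested genes.

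The counts in the lists of related genes that follow stand against all tested genes, of which 1.26% were called lower and 4.61% higher with culture, 1.93% lower and 0.271% higher with PRI-724 against vehicle, and 0.264% higher and 0.251% lower with age. In the IL-1 family list, 2 of 17 tested genes fell with culture and 0 rose, with a median of -0.26. They were Il33, an alarmin of the IL-1 family, at -1.83 ± 0.29 (limma, adjusted p = 0.0092), and Il18bp, which neutralises IL-18, at -1.33 ± 0.31 (adjusted p = 0.0392). With PRI-724 against vehicle 2 fell, with a median of -0.19: Casp1, the protease that matures IL-1 beta and IL-18, at -2.94 ± 0.46 (adjusted p = 0.0118), and Aim2, a DNA-sensing inflammasome receptor, at -1.39 ± 0.27 (adjusted p = 0.0316). Casp1 stood at 5.21 and 4.79 in old and young PRI-724 cells, against 7.33 and 8.56 in vehicle cells. Of the 18 tested genes of the IL-6 list 1 fell with culture, Il11 at -1.80 ± 0.24 (limma, adjusted p = 0.00608), and 0 with PRI-724. Osmr, the oncostatin M receptor, was lower in old than in young cells at -1.11 ± 0.18 (limma, adjusted p = 0.0328).

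In the list on recognition of bacterial products, which also holds adaptors and other sensors, 3 of 17 tested genes fell with culture (Tlr9, Cd14 and Clec4e). With PRI-724 against vehicle 3 others fell (Tlr7, Tlr13 and Cd180). Clec4e fell by 2.82 ± 0.28 with culture (limma, adjusted p = 0.00295), Tlr9, a sensor of bacterial DNA, stood at -1.35 ± 0.29 (adjusted p = 0.0285) and Cd14, the coreceptor for lipopolysaccharide, at -1.23 ± 0.30 (adjusted p = 0.043). Cd180 fell by 3.12 ± 0.38 with PRI-724 (limma, adjusted p = 0.00389), Tlr13 stood at -3.09 ± 0.54 (adjusted p = 0.0201) and Tlr7 at -2.56 ± 0.30 (adjusted p = 0.00342). The list had medians of -0.21 with culture and -0.44 with PRI-724. Beside these genes and Casp1, 12 of 17 macrophage markers fell with PRI-724 (median -2.05), and their part was not tested. In the TNF list 1 of 19 genes fell with culture and 0 with PRI-724, and among 14 NF-kB subunits and inhibitors 1 fell with culture and 0 with PRI-724. Of 20 inducible effectors 1 fell with culture, Csf2, a myeloid growth factor, at -3.02 ± 0.41 (limma, adjusted p = 0.00639), and 0 with PRI-724.

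Of 26 tested genes of other acute-phase plasma proteins 6 fell with culture and 0 rose, with a median of -1.32. The other 20 gave no call, among them Cp, ceruloplasmin, at 1.29 and Mt1, a metallothionein, at 0.03. Serpina3n, a protease inhibitor, fell by 2.92 ± 0.26 (limma, adjusted p = 0.00264), at 5.79 and 5.45 in old and young vehicle cells, against 8.80 and 8.27 in quiescent cells. Pzp stood at -2.26 ± 0.48 (limma, adjusted p = 0.0268), Hpx, the haem carrier hemopexin, at -1.83 ± 0.38 (adjusted p = 0.0254) and Orm2 at -1.76 ± 0.38 (adjusted p = 0.028). With PRI-724 against vehicle 0 of the 26 genes passed in either direction, with a median of 0.40. With age 4 rose and 0 fell, with a median of 1.06: Hpx by 3.49 ± 0.31 (limma, adjusted p = 0.00512), Pzp by 2.59 ± 0.39 (adjusted p = 0.0255), Fgb, a fibrinogen chain, by 2.53 ± 0.37 (adjusted p = 0.0217) and Hp, haptoglobin, by 2.39 ± 0.38 (adjusted p = 0.0318). Most of these genes are made by hepatocytes, whose markers summed highest in old quiescent cells, and the part of hepatocyte RNA in their values was not tested.

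**Figure D4:**
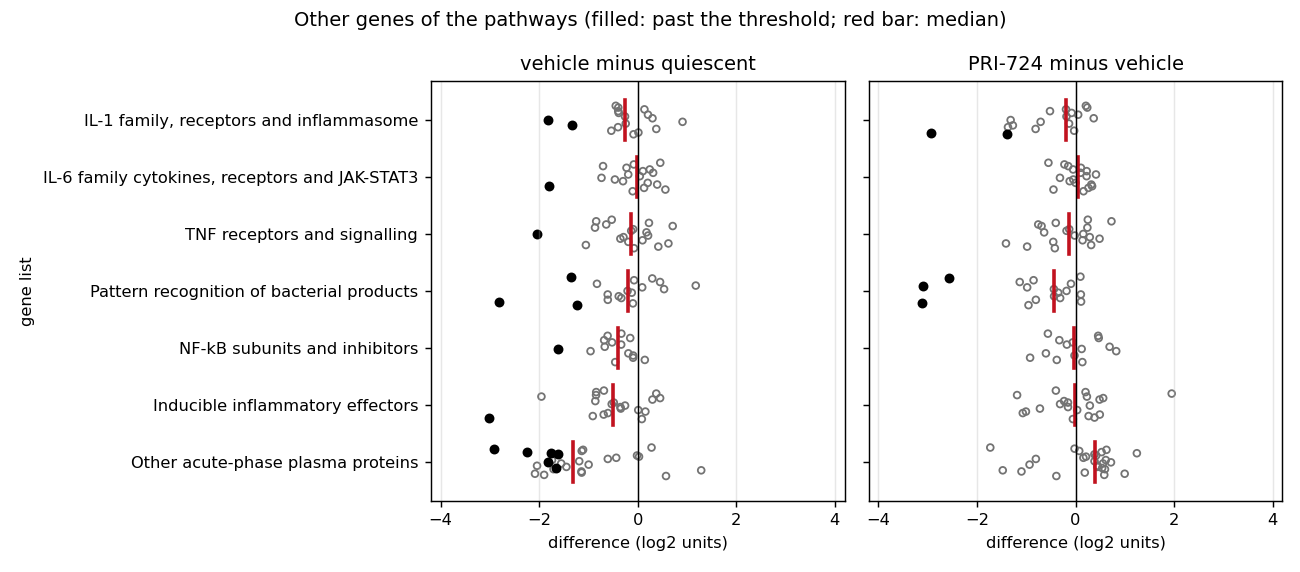
Fitted difference in log2 units (horizontal axis) of each tested gene in 7 lists of related genes, for vehicle minus quiescent and PRI-724 minus vehicle, with filled points past the threshold and a red bar at the median of the list. The acute-phase list has medians of -1.32 and 0.40, and the list on recognition of bacterial products has 3 filled points in each panel.

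PRI-724 cells were set against quiescent cells for the same lists, where 2.43% of all genes were called lower and, as given, 13 of 17 macrophage markers fell. In the IL-1 list 5 genes were called lower, among them Il33 at -3.15 ± 0.29 (limma, adjusted p = 0.000756), Casp1 at -2.93 ± 0.46, Il18bp at -2.60 ± 0.31 and Il18 at -1.77 ± 0.36. In the list on bacterial products 6 were called lower, with Cd180 at -3.22 ± 0.38, Clec4e at -2.71 ± 0.28, Tlr7 at -2.27 ± 0.30 and Cd14 at -2.18 ± 0.30. Tnfaip3 stood at -1.88 ± 0.26 and Tnip1, its binding partner, at -1.40 ± 0.32, both called lower, as were Nfkbia (-1.49 ± 0.22), Il11 (-1.46 ± 0.24) and Csf2 (-2.64 ± 0.41). In the acute-phase list 4 of 26 were called lower, Serpina3n at -2.94 ± 0.26, Cfb at -2.24 ± 0.37, Hamp at -1.93 ± 0.41 and Lbp at -1.41 ± 0.32.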

How the data were processed

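The data were log2 signals of 41345 probe sets on 6 Affymetrix arrays. The deposited log2 values were made by the authors with Affymetrix Expression Console and RMA, per the submitters' processing notes. Neither tool's version nor its settings is given in the sources used here. RNA was purified on RNeasy columns and labelled with the WT PLUS kit, per the labels' protocols.

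The platform's table gave 1 symbol for 23521 probe sets, several for 1814 and none for 16010. Only the first kind was used, with the probe set of the highest mean for each gene. The 30% of genes with the lowest mean (under 4.70) were left out of the tests. Differences were fitted with limma 3.58.1 in R 4.3.3 with an intensity trend (2 residual and 7.76 prior degrees of freedom). The fit was tested on simulated data. Promoters came from RefSeq (GRCm38.p6), which matched all 10 genes. Lists of related genes are described by counts and medians. Named from them were genes past the threshold, at most 4 a list and comparison, with receptors and inhibitors always named. The genes and lists were chosen with earlier results of these data known. The number of arrays limits the precision. Alternatives were no filter, a filter of 50%, the mean of all probe sets, no trend, no covariate, only the compared arrays, cyclic loess, quantile normalization and each array left out. Sums of marker signals are on the linear scale.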

Additional observations from a re-analysis of the deposited data

Results flagged for a closer look

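Some of the 9 genes had differences of opposite sign in old and young cells, no more often than all tested genes did. With 1 array for each age and state, these differences between the ages were not tested. For vehicle minus quiescent, Il6 differed by -1.04 in old and 1.09 in young cells, and Lcn2 by -0.83 in old and 3.46 in young cells. For PRI-724 minus vehicle, Il1b differed by 0.75 in old and -0.47 in young cells, Saa3 by 0.12 in old and -0.22 in young cells, and Lcn2 by 0.26 in old and -1.74 in young cells. For PRI-724 minus quiescent, Lcn2 differed by -0.57 in old and 1.72 in young cells. Opposite signs at the 2 ages occurred in 25.9%, 39.1% and 44.3% of all tested genes in these comparisons, and 2, 3 and 1 of the 9 genes had them. Lcn2 is the gene that appears in all 3 comparisons. Its young vehicle value, at 10.29, enters only the first 2 of them.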

How the results depend on the processing

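The counts of genes past the threshold were unchanged without a filter, with the mean of all probe sets and without an intensity trend. Each of the 9 genes had a single probe set, so the mean of all probe sets left their own values as they were. Without age (or state) in the model, 0 genes were called lower for vehicle minus quiescent, 1 lower for PRI-724 minus vehicle and 0 higher for old minus young. With only the compared arrays, 4 were called lower and 1 higher for PRI-724 minus vehicle, and 7 lower and 1 higher for PRI-724 minus quiescent, while vehicle minus quiescent had 4 lower. With the lowest 50% of genes left out, Il1b and Il6 were no longer tested and 4 genes were called lower in each comparison with quiescent cells. After quantile normalization 3 and 1 genes were called lower in the first 2 comparisons, and 0 higher in old cells, as after cyclic loess. With each array left out in turn, 3 to 5 genes were lower and 0 to 2 higher for vehicle minus quiescent, 0 to 4 lower and 0 to 1 higher for PRI-724 minus vehicle, 0 to 7 lower and 0 to 2 higher for PRI-724 minus quiescent, and 0 to 2 lower and 0 to 1 higher in old cells. Those fits have 1 residual degree of freedom, and prior degrees of freedom between 3.51 and infinity, so their p-values are less comparable. Signs turned for differences that were not called: after quantile normalization Il6 for vehicle minus quiescent (-0.11), Saa3 for PRI-724 minus vehicle (0.18, and 0.19 after cyclic loess) and Il1a for old minus young (0.00303). Leaving out single arrays also turned signs. For vehicle minus quiescent Il6 then ran from -1.05 to 1.09 and Lcn2 from -0.33 to 2.96. For PRI-724 minus vehicle Il1b ran from -0.42 to 0.70, Acod1 from -0.63 to 0.19, Saa3 from -1.02 to 0.93 and Lcn2 from -2.31 to 0.83. Lcn2 for PRI-724 minus quiescent ran from -1.07 to 2.22 and Il6 for old minus young from -0.74 to 0.33. The cause was not tested. The labels give no replicate numbers, and the fit pairs arrays by age alone.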
